A study of Mus musculus with 24 samples.

Results

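The genes described here make creatine or pass phosphate to and from it in hind limb muscle of mice. The 6 genes are Gamt, Gatm, Ckm, Ckmt2, Ckb and Ckmt1, and every probe set that the array annotation lists with 1 of them was taken. That gave 7 probe sets, 2 of them for Ckmt1, among 22626 probe sets and 12393 genes on the array. The group was chosen by the changes between unloaded and weight bearing muscle in each genotype, among them the fall of Gamt in Nfkb1-/- mice. Changes with unloading are therefore given as descriptions, without a p-value. All 7 probe sets passed the filter on dim signals, but those of Ckmt1 passed only through the Bcl3-/- arrays.

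The study asked which genes need NF-κB p50 or Bcl-3 to respond to disuse. RNA came from whole gastrocnemius and plantaris tissue of male mice bought at 6 weeks of age, which after 3 days of acclimation either stayed weight bearing (WB) or were hind limb unloaded (HU) for 6 days. Wild type mice were B6129PF2/J. Nfkb1-/- mice, which lack p50 in all cells, were B6;129P2-Nfkb1tm1Bal/J, and Bcl3-/- mice, which lack the p50 partner Bcl-3 in all cells, were FVB;129P2-Bcl3tm1Ver/J. Each of the 6 groups had 4 arrays, labelled as biological replicates, and the small number of arrays limits precision throughout. The knockouts and the wild type mice thus differ in strain background as well as in the deleted gene.

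Creatine is made in 2 steps. Gatm joins arginine and glycine to guanidinoacetate and releases ornithine, and Gamt then adds a methyl group from S-adenosylmethionine. Most creatine is made in the kidney and liver, and muscle takes it up from blood through the transporter Slc6a8. In the fibre, mitochondrial creatine kinase (Ckmt2 in striated muscle, Ckmt1 in most other tissues) charges creatine to phosphocreatine between the mitochondrial membranes, and cytosolic creatine kinase (Ckm in muscle, Ckb in brain and many other cells) uses phosphocreatine to remake ATP where it is spent.

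All values are deposited intensities, which have no unit and say nothing of the level of 1 gene against another. The Bcl3-/- arrays were on another scale, with array medians of 81.1 to 86.8 against 11.6 to 11.9 on the 16 wild type and Nfkb1-/- arrays. Levels are therefore compared within a genotype, or between wild type and Nfkb1-/-. The labelled tissue was checked against fibre markers. Of 10 skeletal muscle genes looked for, 9 were on the array, and their summed intensity was 41178 to 43124 over the wild type and Nfkb1-/- arrays. The deletions themselves were not checked. A probe set for Nfkb1 is not listed, and the scale of the Bcl3-/- arrays bars a comparison of Bcl3 intensities.

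The sequences upstream of the 3 genes that were lower after unloading in at least 1 genotype, and of Ckm, which was not, are shown because the study concerned transcription factors. They come from RefSeq on GRCm38.p6 and run 5′ to 3′ on the gene's strand, ending outside the annotated gene. Gamt lies on the minus strand and its window is chr10:80261026-80261262. The windows of Ckmt2 (minus strand, chr13:91876924-91877135), Ckb (minus strand, chr12:111672339-111672588) and Ckm (plus strand, chr7:19410844-19411093) follow. Capitals mark the matches found on either strand. E-boxes, which MyoD and its relatives bind, were searched as CANNTG. The box bound by NF-Y in many promoters was searched as CCAAT, and the box that places the start of transcription was searched as TATAAA. Sp1 family sites, called GC boxes, were searched as GGGCGG. The longer half-site of nuclear receptors such as the estrogen-related receptors was searched as AAGGTCA. Sites for NF-κB (κB) and for MEF2, a factor of muscle genes, were searched by their usual consensus.
Gamt: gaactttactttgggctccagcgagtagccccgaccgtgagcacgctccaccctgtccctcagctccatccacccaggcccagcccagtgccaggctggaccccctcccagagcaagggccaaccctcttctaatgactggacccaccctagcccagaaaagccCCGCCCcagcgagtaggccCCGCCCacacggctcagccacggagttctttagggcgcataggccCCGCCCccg
Ckmt2: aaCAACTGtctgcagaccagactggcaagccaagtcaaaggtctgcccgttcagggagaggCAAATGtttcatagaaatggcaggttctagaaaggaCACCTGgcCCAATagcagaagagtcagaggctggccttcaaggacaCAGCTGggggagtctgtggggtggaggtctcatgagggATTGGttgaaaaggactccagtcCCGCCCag
Ckb: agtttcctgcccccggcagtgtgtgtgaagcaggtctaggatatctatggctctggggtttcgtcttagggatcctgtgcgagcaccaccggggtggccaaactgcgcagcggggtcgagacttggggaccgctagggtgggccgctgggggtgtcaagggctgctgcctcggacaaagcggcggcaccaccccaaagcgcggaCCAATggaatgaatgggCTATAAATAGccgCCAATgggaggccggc
Ckm: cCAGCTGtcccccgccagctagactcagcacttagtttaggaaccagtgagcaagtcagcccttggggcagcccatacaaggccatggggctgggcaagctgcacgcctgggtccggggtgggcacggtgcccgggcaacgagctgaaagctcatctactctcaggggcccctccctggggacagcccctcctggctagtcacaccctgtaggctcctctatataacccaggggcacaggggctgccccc

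No motif lay in all 4 windows. Gamt held 3 GC boxes and none of the other motifs. Ckmt2 held 4 E-boxes, 2 CCAAT boxes and 1 GC box, Ckb held 2 CCAAT boxes and 1 TATA box that lies inside a MEF2 match, and Ckm held 1 E-box. In the 250 bases before the start of all 32851 promoters listed, an E-box was found in 66.2%, a CCAAT box in 33.8%, a GC box in 32.7%, a TATA box in 12.4%, a κB match in 7.25%, the nuclear receptor half-site in 4.08% and a MEF2 match in 0.508%. No κB match lay in the 4 windows, which says only that these letters are not there. The matches are descriptions of sequence and were not related to the changes below.

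Gamt, which carries out the methylation step, fell most in Nfkb1-/- muscle. The 4 WB Nfkb1-/- arrays had intensities of 53.3, 54.4, 39.3 and 72.7, and the 4 HU arrays had 18.6, 10.4, 13.2 and 20.8. The HU arrays all lay below the WB arrays, and the mean went from 54.9 ± 13.7 to 15.8 ± 4.78 (SD, n = 4). This is a log2 change of -1.82 (SE 0.24, 95% interval -2.32 to -1.32), or 0.283 of the WB level, and was rank 3 among the falls of all 19294 probe sets tested in that genotype. It is the value that brought the gene into the group. The HU Nfkb1-/- intensities are close to the array medians of 11.6 to 11.9, where background weighs on the signal, and after 16 was added to every intensity the log2 change was -1.15. In bulk tissue, fewer cells that express a gene and less RNA per cell cannot be told apart.

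In wild type muscle the Gamt values overlapped. WB arrays had 49.7, 38.2, 46.7 and 30.4 and HU arrays had 40.2, 35.4, 30.2 and 25.5, with a log2 change of -0.33 (SE 0.24, 95% interval -0.83 to 0.18). HU intensities were 25.5 to 40.2 in wild type and 10.4 to 20.8 in Nfkb1-/- muscle. These HU values are among those that brought the gene into the group, and the share of all probe sets so separated was not counted. In Bcl3-/- muscle the WB arrays had 372, 219, 560.3 and 332 and the HU arrays had 200.4, 168, 183 and 249.8. WB replicate 3 was the highest and the groups overlapped through WB replicate 2. The log2 change was -0.83 (SE 0.24, 95% interval -1.33 to -0.32), and leaving out 1 array at a time gave -1.05 to -0.60, among the probe sets called lower in 3 of 8 such fits. It was no longer called without WB replicate 1 or 3, without HU replicate 1, 2 or 3, or in a fit of only the groups compared.

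Gatm, which carries out the first step of synthesis, had no called change. Its level and that of Gamt varied together from array to array within groups (Pearson r 0.64, Spearman's rho 0.63, over 24 arrays with each group mean subtracted, as a description). Gamt had a like r with Ckb (0.64), Ckm (0.58) and 1 Ckmt1 probe set (0.56). It had lower r with Ckmt2 (0.26) and the other Ckmt1 probe set (-0.29). Wild type WB arrays of Gatm had 15.2, 20.1, 14.1 and 16.2, and HU arrays had 27.5, 23.9, 18.7 and 16.1. The groups overlapped, and the log2 change was 0.37 (SE 0.19, 95% interval -0.01 to 0.76). Nfkb1-/- intensities were 15.2 to 20.1 in WB and 12.7 to 23.6 in HU muscle, with a log2 change of -0.10 (SE 0.19). Bcl3-/- intensities were 47.3 to 76 in WB and 55.5 to 84 in HU muscle, with a log2 change of 0.15 (SE 0.19). It was not called in any genotype. Its signal in wild type and Nfkb1-/- muscle was also close to the array medians.

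**Figure D1:**
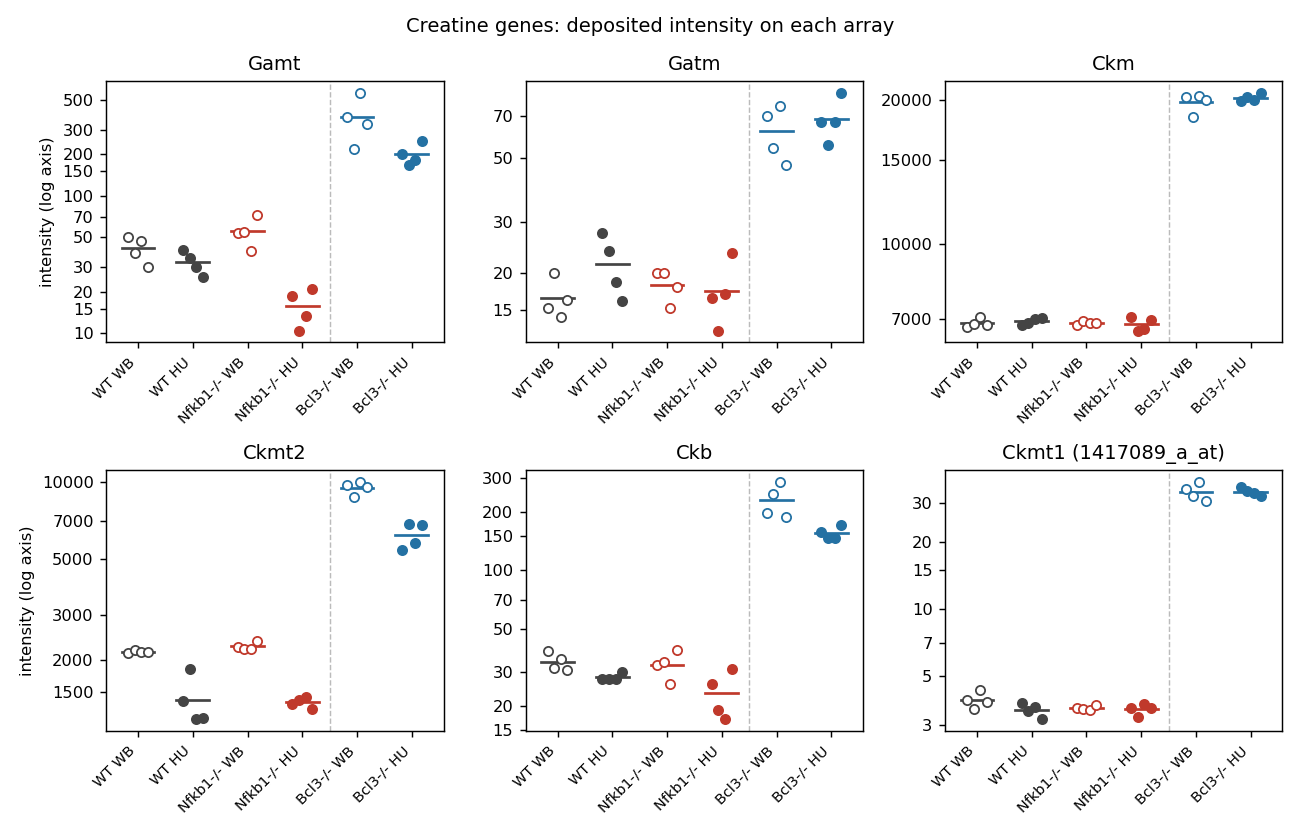
Deposited intensity (log axis) of each creatine gene on each of the 24 arrays, with open points for weight bearing (WB) and filled points for unloaded (HU) mice and a bar for the group mean of 4 arrays; the dashed line parts the Bcl3-/- arrays, which are on another scale. The 4 HU Nfkb1-/- arrays of Gamt lie between 10.4 and 20.8, below the 4 WB arrays, and the HU arrays of Ckmt2 lie below the WB arrays in each genotype.

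Ckmt2, the mitochondrial creatine kinase of striated muscle, was lower after unloading in all 3 genotypes and by a like amount. Wild type WB arrays had intensities of 2143, 2207, 2151 and 2156 and HU arrays had 1386, 1849, 1177 and 1191. HU replicate 2 stood above the other HU arrays but still below every WB array. The log2 change was -0.65 (SE 0.11, 95% interval -0.87 to -0.43), a mean that was 36.4% lower, and -0.79 without HU replicate 2. In Nfkb1-/- muscle the WB arrays had 2261, 2217, 2219 and 2380.1 and the HU arrays had 1355, 1404, 1445 and 1294. The log2 change was -0.72 (SE 0.11, 95% interval -0.95 to -0.50), or 39.5% lower. In Bcl3-/- muscle the WB arrays had 9713, 8693, 10022 and 9531 and the HU arrays had 5428, 6833, 5761 and 6759. The log2 change was -0.62 (SE 0.11, 95% interval -0.84 to -0.40), or 34.9% lower. No HU array reached the lowest WB array of its genotype. Ckmt2 was among the called probe sets in each genotype in every fit that left out 1 array, with log2 changes between -0.79 and -0.56. In wild type muscle the test of the study's methods with Benjamini-Hochberg adjustment did not call it. With q-values, which the study used, that test called 1 creatine probe set in wild type muscle.

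Ckb, the cytosolic kinase of brain and many non-muscle cells, was lower after unloading in Nfkb1-/- and Bcl3-/- muscle. Nfkb1-/- WB arrays had 32.4, 33.6, 26 and 38.8 and HU arrays had 26.1, 19, 17.1 and 31, which overlap. The log2 change was -0.51 (SE 0.15, 95% interval -0.83 to -0.20). It was called in 3 of the 8 fits that left out 1 array, and not without WB replicate 1, 2 or 4 or without HU replicate 2 or 3. It was also not called in a fit of only the groups compared or after 16 was added, where it was -0.32. Bcl3-/- WB arrays had 197, 248, 286 and 188 and HU arrays had 157, 147, 146 and 170.3, with no overlap. The log2 change was -0.55 (SE 0.15, 95% interval -0.87 to -0.23), called in 3 of 8 such fits, and not without WB replicate 2 or 3 or without HU replicate 1, 2 or 3. Wild type WB arrays had 38.4, 31.4, 34.9 and 30.5 and HU arrays had 27.6, 27.6, 27.4 and 29.8. The wild type groups did not overlap, but the log2 change of -0.26 (SE 0.15, 95% interval -0.58 to 0.06) was not called.

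Ckm, the main cytosolic kinase of muscle, had log2 changes near 0 in each genotype. The means were 6855 ± 140.0 and 6916 ± 107 (SD, n = 4) in WB and HU wild type muscle, 6861 ± 42.3 and 6828 ± 219 in Nfkb1-/- muscle, and 19756 ± 935 and 20189 ± 351 in Bcl3-/- muscle. The groups overlapped in each genotype. The log2 changes were 0.01, -0.01 and 0.03 in that order (SE 0.06 each), and the 95% intervals ran from -0.13 to 0.16 over the 3 genotypes. The probe set ranked 3 to 8 from the brightest on every array. Deposited intensities do not show whether such bright spots were saturated, which would hide a change.

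Ckmt1, the mitochondrial kinase of most non-muscle tissues, gave little signal. Its probe sets had intensities of 3.13 to 4.64 on the wild type and Nfkb1-/- arrays, where the dimmest 5% of probe sets lay under 2.48 to 2.76. On the Bcl3-/- arrays they had 25.1 to 37.3, where the dimmest 5% lay under 13 to 14.8. Log2 changes were between -0.20 and 0.01, and none was called. The lowest was that of the probe set with the weaker Bcl3-/- signal in Nfkb1-/- muscle, with 3.89 ± 0.381 in WB and 3.39 ± 0.289 in HU mice and overlapping groups, while the other probe set changed by -0.02 there.

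**Figure D2:**
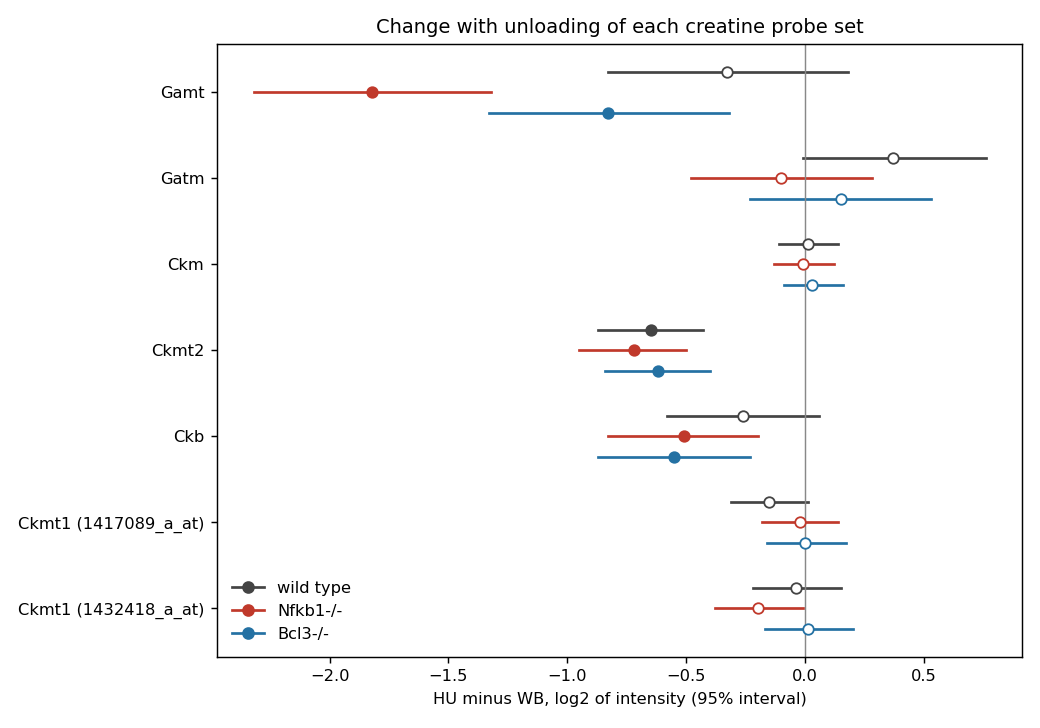
Log2 change of each creatine probe set with unloading (HU minus WB, x axis) with its 95% interval, in wild type, Nfkb1-/- and Bcl3-/- muscle; filled points are among the probe sets called at an adjusted p under 0.05 over all tested. Ckmt2 sits between -0.72 and -0.62 in the 3 genotypes, whereas Gamt runs from -0.33 in wild type to -1.82 in Nfkb1-/- muscle.

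A call means a limma adjusted p under 0.05 over all 19294 probe sets tested. In wild type muscle 1 of the 7 creatine probe sets was called lower (Ckmt2) and none higher, and 1.66% of all probe sets tested were called lower. In Nfkb1-/- muscle 3 of 7 were called lower (Gamt, Ckmt2 and Ckb) against 6.59% of all tested. In Bcl3-/- muscle the same 3 of 7 were called lower against 2.81% of all tested. These shares are set beside the counts only for scale, because the group was chosen with these changes known. Groups did not overlap, with HU lower, for Ckmt2 and Ckb in wild type muscle (4.89% of all tested), Gamt and Ckmt2 in Nfkb1-/- muscle (10.9%) and Ckmt2 and Ckb in Bcl3-/- muscle (4.07%). The median log2 change of the 7 probe sets was -0.15, -0.20 and 0 in the 3 genotypes, and that of all tested was -0.01, 0 and 0.02.

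The response of wild type muscle was next set against that of each knockout, again as a description. For Gamt the wild type change minus the Nfkb1-/- change was 1.49 on the log2 scale (SE 0.34, 95% interval 0.78 to 2.2). It was not among the 0.176% of probe sets called in that comparison, but it was called when the filter used only wild type and Nfkb1-/- arrays, with array weights, and without Nfkb1-/- WB replicate 3 or HU replicate 4. Against Bcl3-/- the difference for Gamt was 0.50 (SE 0.34, 95% interval -0.21 to 1.21), where 1.07% of all tested were called. For Ckmt2 the differences were 0.07 (95% interval -0.24 to 0.38) and -0.03 (95% interval -0.35 to 0.28), so that a gap of over 0.38 on the log2 scale lies outside both intervals. For Ckb they were 0.25 (95% interval -0.20 to 0.71) and 0.29 (95% interval -0.16 to 0.74). None of the 7 probe sets was among those called in either comparison. The comparisons share the wild type arrays.

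In WB muscle, Nfkb1-/- was next compared with wild type, a contrast the choice did not name although it uses the same WB arrays. None of the 7 probe sets was called by limma and none had an unadjusted p under 0.05, where 0.902% of all tested were called. The filter of the methods' test of the study left 1 of the 7, which it did not call. WB Gamt was 0.40 higher in Nfkb1-/- muscle on the log2 scale (SE 0.24, limma adjusted p = 0.8), with overlapping arrays. WB Ckmt2 was 0.07 higher (SE 0.11, limma adjusted p = 0.97), although its 4 Nfkb1-/- arrays lay above the 4 wild type arrays, as was so for 3.33% of all tested. The other 5 probe sets differed by -0.12 to 0.16.

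The genes that bring creatine in or share its phosphate showed few changes. This list holds 18 genes, of which 16 were on the array and tested. Adk, which turns adenosine into AMP, was the only one called in any genotype. It fell in Nfkb1-/- muscle from 486 to 344 (log2 change -0.52, SE 0.11, limma adjusted p = 0.0038), and had log2 changes of -0.32 (SE 0.11, limma adjusted p = 0.11) in wild type and -0.24 (SE 0.11, limma adjusted p = 0.18) in Bcl3-/- muscle. Slc6a8, the creatine transporter, named here for its role and outside the naming rule, had log2 changes of -0.16, -0.14 and -0.21 (SE 0.09 each) in wild type, Nfkb1-/- and Bcl3-/- muscle, and was not called. Slc25a5, an adenine nucleotide carrier of the inner mitochondrial membrane, had -0.23, -0.38 and -0.39 (SE 0.14 each), and Ampd3, which deaminates AMP, had -0.53 (SE 0.29) in Bcl3-/- muscle. These were not called either. The median log2 change of the list was -0.07, -0.10 and 0 in the 3 genotypes.

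Of the 23 genes that supply arginine, glycine and methyl groups, 20 were on the array and 17 were tested. In Nfkb1-/- muscle 2 were called higher and 0 lower, where 11.4% of all probe sets were called in either direction. In Bcl3-/- muscle 4 were called higher and 1 lower, where 10.4% of all were called. In Nfkb1-/- muscle Nnmt, which spends S-adenosylmethionine on nicotinamide, rose from 9.23 to 17.3 (log2 change 0.84, SE 0.19, limma adjusted p = 0.0047) with overlapping arrays. Its WB intensities there, 8.35 to 10.3, lay below the array medians of 11.6 to 11.9, where background weighs on the signal. Nnmt did not pass the filter on the Nfkb1-/- arrays alone or on the wild type arrays alone. It was tested in these genotypes through arrays of other genotypes. Slc7a2, a carrier of arginine and other cationic amino acids, rose from 17.5 to 24.4 in Nfkb1-/- muscle (0.48, SE 0.12, limma adjusted p = 0.0087). In Bcl3-/- muscle Slc7a2 rose by 0.64 (SE 0.12, limma adjusted p = 0.0015) and Odc1, which decarboxylates ornithine, rose by 0.77 (SE 0.20, limma adjusted p = 0.015). Ahcy, which clears the S-adenosylhomocysteine left by methylation, also rose there by 0.38 (SE 0.10, limma adjusted p = 0.019), as did Mtrr, which keeps methionine synthase active and is named outside the naming rule as the fifth called gene, by 0.36 (SE 0.09, limma adjusted p = 0.013). Slc38a2, a carrier of neutral amino acids, fell by 0.71 in Bcl3-/- muscle (SE 0.20, limma adjusted p = 0.027). In wild type muscle the largest changes were those of Nnmt (0.55, SE 0.19, limma adjusted p = 0.099) and Psat1, an enzyme of serine synthesis (0.45, SE 0.18, limma adjusted p = 0.18). Mean Psat1 there was 8.25 in WB and 11.5 in HU muscle, also below the array medians, and Psat1 passed the filter only through the Bcl3-/- arrays.

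Over both lists, limma called 0 of 33 genes in wild type muscle and 3 had an unadjusted p under 0.05, where 3.97% of all probe sets were called. The filter of the methods' test left 3 of the 33 there, and it called 0 of these. In Nfkb1-/- muscle 2 rose and 1 fell, where 11.4% of all were called, and in Bcl3-/- muscle 4 rose and 1 fell, where 10.4% of all were called. When the filter used only the Nfkb1-/- arrays, 23 genes were tested in that genotype, and the calls were 1 higher and 2 lower. By list, the calls in Bcl3-/- muscle were 5 of 17 supply genes and 0 of 16 uptake and transfer genes, and 5 of these 16 had an unadjusted limma p under 0.05. Whether the lists differ from the background was not tested. In the differences between the wild type response and each knockout response, limma called none of the 33, and 3 (Nfkb1-/-) and 5 (Bcl3-/-) had an unadjusted p under 0.05.

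**Figure D3:**
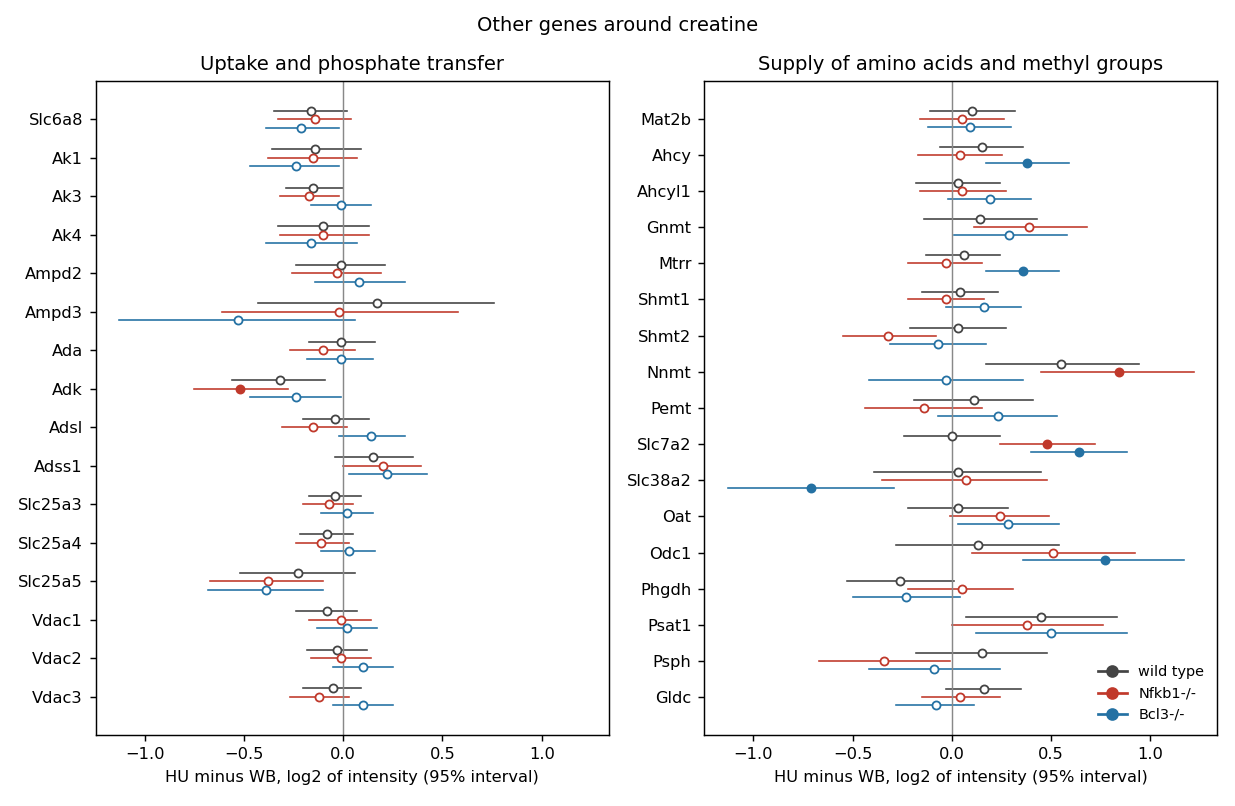
Log2 change with unloading (HU minus WB, x axis) and 95% interval of 33 genes around creatine in wild type, Nfkb1-/- and Bcl3-/- muscle, in 2 lists; filled points passed an adjusted p of 0.05 over all probe sets. In the left list the filled point is Adk in Nfkb1-/- muscle at -0.52, and in the right list filled points lie on both sides of 0.

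The genes whose pattern was most like that of Gamt were Marcks, Col6a2, Mest and Dynll2. Likeness is Pearson's r over the 24 arrays after the genotype mean was subtracted, so it holds the difference between HU and WB muscle, and arrays of 1 group share their treatment. The 2 probe sets of Marcks had r of 0.94 and 0.93, and Col6a2, a chain of type VI collagen, had 0.94. Mest had 0.93 and Dynll2 had 0.92. Their log2 changes in Nfkb1-/- muscle were -1.42 for Col6a2, -1.11 for Mest, -1.1 for Dynll2 and -0.90 and -1.13 for Marcks. Ckb was most like Tmem119 (0.89) and Col5a2, a chain of type V collagen (0.87). Ckmt2 was most like Coq7, an enzyme of ubiquinone synthesis, and Mdh1, the cytosolic malate dehydrogenase (0.96 each), which had log2 changes of -0.59, -0.73 and -0.54 and of -0.36, -0.41 and -0.41 in the 3 genotypes, in the order used above. Gatm was most like Tgds (0.79) and Cfp (0.77), Ckm like Rab3d (0.87) and Pgm1 (0.86), and Ckmt1 like Ttc16 (0.79) and Tle4 (0.73).

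Since collagen genes were among those most like Gamt and Ckb, a list of 14 fibroblast and matrix genes was added after the likeness was seen, and is given as a description. Col6a2 is in both. Of its 13 genes on the array, 1 was called lower in wild type muscle, 9 in Nfkb1-/- and 9 in Bcl3-/- muscle, and none higher. Their median log2 change was -0.29, -0.85 and -0.77. Of all probe sets tested, 1.66%, 6.59% and 2.81% were called lower in that order. The summed intensity of the list was 7703 to 9265 in WB and 5297 to 6645 in HU wild type muscle, 7638 to 9424 and 3258 to 6857 in Nfkb1-/- muscle, and 35510.4 to 50279 and 21887 to 33379 in Bcl3-/- muscle. WB and HU arrays did not overlap in any genotype. None of the 13 genes was at 0. Col1a1 went from 987 to 332 and Col6a2 from 356 to 140.1 in Nfkb1-/- muscle, and Thy1 and Lum, which fibroblasts also express, went from 42.3 to 19.9 and from 216 to 130.2. Pdgfra and Dcn, further fibroblast genes, went from 104 to 114 and from 1482 to 1536 there and were not called in any genotype. Within groups, over 24 arrays with each group mean subtracted, the list mean had a Pearson r of 0.70 with Gamt (Spearman's rho 0.79), 0.81 with Gatm (rho 0.79), 0.63 with Ckb (rho 0.55) and 0.20 with Ckmt2 (rho 0.35). Without the 2 arrays farthest out, HU Nfkb1-/- replicates 2 and 4, r was 0.62, 0.74, 0.46 and 0.43. Other lists had within-group r of similar size. The mean of the macrophage genes had 0.63 with Gamt, 0.71 with Gatm and 0.51 with Ckb, that of the smooth muscle genes had 0.61 with Ckb, and that of the Schwann cell genes had 0.66 with Gatm. The array with the lowest list level, HU Nfkb1-/- replicate 2, also had the lowest Gamt intensity, and without it the log2 change of Gamt in Nfkb1-/- muscle was -1.64. The part of the matrix genes in the changes of Gamt and Ckb was not tested.

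**Figure D4:**
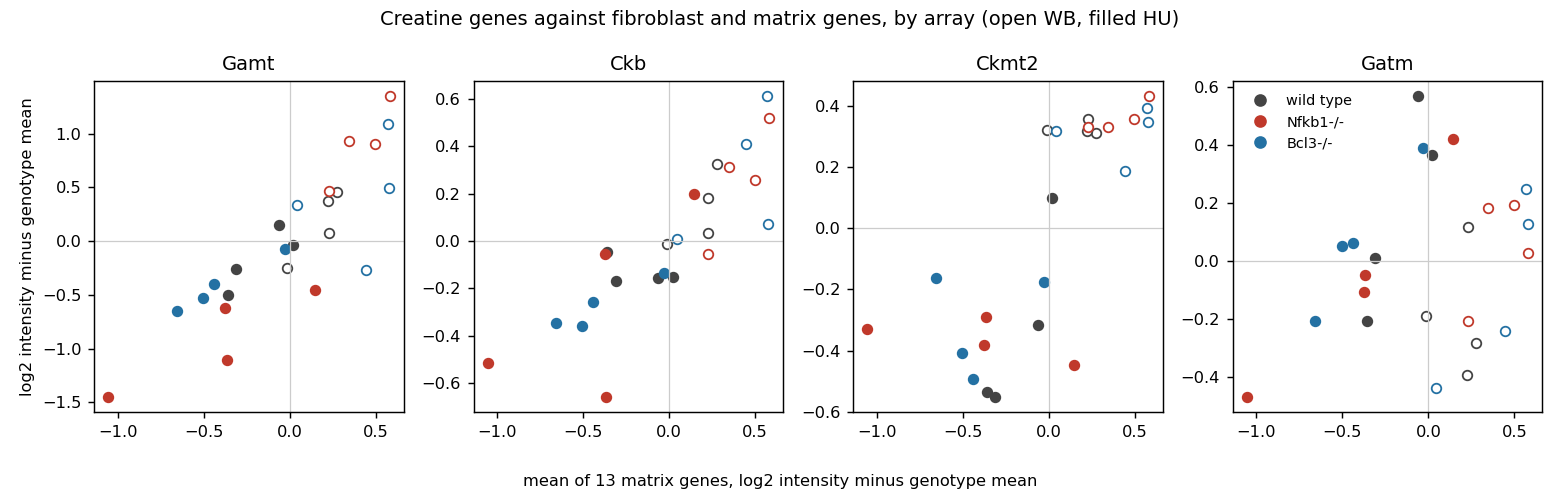
Log2 intensity of Gamt, Ckb, Ckmt2 and Gatm (y axes) against the mean log2 intensity of 13 fibroblast and matrix genes (x axis) on 24 arrays, each with its genotype mean subtracted; open points are WB and filled points HU arrays. With group means subtracted, r was 0.70 for Gamt, 0.63 for Ckb, 0.20 for Ckmt2 and 0.81 for Gatm, and 0.62, 0.46, 0.43 and 0.74 without the 2 arrays farthest out. Ckmt2 parts into a WB and an HU cluster.

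The slow fibre genes did not change in 1 direction over the genotypes. Of 8 slow fibre genes, limma called none in wild type muscle (median log2 change 0.42, with 6 at an unadjusted p under 0.05), 4 were called higher in Nfkb1-/- muscle (0.47) and 7 were called lower in Bcl3-/- muscle (-0.81), whereas Ckmt2 was lower in all 3. Of 11 fast fibre genes tested, limma called 0, 1 and 2 in the 3 genotypes, and 0, 3 and 2 had an unadjusted p under 0.05. The calls were 1 lower in Nfkb1-/- muscle, and 1 higher and 1 lower in Bcl3-/- muscle. Mean Myh2 was lower in HU muscle of each genotype (3619 to 2809, 3689.9 to 2690.3 and 11717 to 5437), with overlapping arrays in wild type. Mean Actn3 was higher in each (6182 to 6666, 5980.3 to 6505 and 14369.7 to 17027). Genes of other cells were called in the knockouts: 3 of 6 adipocyte genes higher in Nfkb1-/- muscle, and 2 of 6 neutrophil genes (S100a8 and S100a9) higher in both knockouts. For scale beside these fibre and cell counts, 3.97%, 11.4% and 10.4% of all probe sets tested were called in either direction in the 3 genotypes. The summed intensity of the neutrophil genes was 35.7 to 48.1 in WB and 64 to 142 in HU Nfkb1-/- muscle, and 226 to 241 and 368 to 856 in Bcl3-/- muscle. S100a8 and S100a9 carried most of this rise. In wild type muscle their means also rose, from 5.71 to 28.2 (HU arrays 8.06 to 85.7) and from 3.46 to 6.93, without a call. In the difference from the wild type response, 0 of the 6 neutrophil genes were called for Nfkb1-/- and 1 for Bcl3-/- muscle. The means of S100a8 and S100a9 went from 8.75 to 33.7 and from 7.87 to 37.3 in Nfkb1-/- muscle. Ngp went from 9.61 to 9.78 there, Ltf from 3.25 to 3.77, Camp from 4.14 to 3.94 and Elane from 7.91 to 8.26. Of the macrophage, endothelial, smooth muscle, Schwann cell and satellite cell lists, none had over 1 gene called in any genotype. The part of fibre types and of these cells in the changes of the creatine genes was not tested.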

How the data were processed

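Total RNA of 24 mouse muscles was hybridised to 1-colour Affymetrix arrays. The authors processed the scanner files in GenePattern (RMA, then quantile normalization) and deposited linear intensities; which arrays were normalized together is not given in the sources used here. RMA pools the probes of a probe set, and neither probe-level signals nor detection calls were used here. Values were taken to log2. Probe sets over 20 on at least 4 arrays were tested, 19294 of 22626. R 4.3.3 with limma 3.58.1 (18 residual degrees of freedom) fitted a mean per group, with Benjamini-Hochberg adjustment over all tested and calls under 0.05. The fit was tested on simulated data.

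Groups are those of the labels. The genes, lists and tests were chosen with earlier results of these data known. Named were all probe sets of the 6 genes; per list and genotype the 4 called genes with the largest change, or 2 where none was called (exceptions are marked); and the 5 (Gamt) or 2 (others) most alike probe sets. In lists, the brightest probe set stands for its gene. Names come from the platform annotation, updated by Entrez number; 1555 probe sets were not listed and 691 had several genes. Some list genes are not reported here. Alternatives covered the filter, the samples fitted, the variance model, array weights, normalization, an added 16, the methods' test of the study (floor 20, ceiling 20000, on intensities), the replicate number and each array left out.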

Additional observations from a re-analysis of the deposited data

Results flagged for a closer look

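A single array of the creatine genes stood apart from its group. For Ckb in HU wild type muscle, replicate 4 had an intensity of 29.8 while the other 3 arrays had 27.4 to 27.6, a gap of 0.888 of the group's range, past Dixon's critical value for 4 samples. Of 42 groups looked at, 1 was flagged, and chance alone flags about 1 in 20. The log2 change of Ckb in wild type muscle was not called with or without it.

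The response of 6 of 8 slow fibre genes differed between wild type and Bcl3-/- muscle in the limma test of the difference, where 1.07% of all tested were called. The creatine genes showed no such call.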

How the results depend on the processing

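Of 351 log2 changes of single creatine probe sets under other settings, 348 lay within 1 SD of the reported value, and no called change turned its sign. The 3 others came with log2 of the intensity plus 16: Gamt in Nfkb1-/- muscle (-1.15, from -1.82) and a Ckmt1 probe set each in wild type (-0.03, from -0.15) and Nfkb1-/- muscle (-0.04, from -0.20). Part of this likeness was fixed in advance. Another filter, a fit of only the groups compared or another variance model leaves a difference of group means as it is. The methods' test of the study is not among the 351. Among changes that were not called, leaving out 1 array gave -0.46 to -0.21 for Gamt and 0.24 to 0.50 for Gatm in wild type, and -0.26 to 0.04 for Gatm in Nfkb1-/- muscle. Leaving out 1 array at a time gave 1 called creatine probe set in wild type, 2 to 3 in Nfkb1-/- and 1 to 3 in Bcl3-/- muscle, 0 to 1 and 0 in the differences from the Nfkb1-/- and Bcl3-/- responses, and 0 in WB muscle. For the other pathway genes it gave 0 to 1, 3 to 4 and 3 to 6 in the 3 genotypes. The methods' test with Benjamini-Hochberg adjustment called 0, 1 and 1 creatine probe sets in wild type, Nfkb1-/- and Bcl3-/- muscle and 1 and 0 other pathway genes in Nfkb1-/- and Bcl3-/- muscle. With q-values it called 1 creatine probe set and 1 other pathway gene in Bcl3-/- muscle. In wild type muscle it then called 1 creatine probe set, as limma did. In Nfkb1-/- muscle its counts with q-values stayed close to the limma counts of 3 and 3. The filter within the genotypes compared and array weights each called 1 creatine probe set in the difference between the wild type and Nfkb1-/- responses. A fit of only the groups compared called 6 other pathway genes in Nfkb1-/- and 2 in Bcl3-/- muscle, array weights called 3 and 7 in wild type and Nfkb1-/- muscle, and quantile normalization again called 1 in wild type muscle. The cause was not tested. The replicate numbers did not pair the samples: over 12 pairs the correlation of deviations was -0.17 to 0.22, over 0.1 in 2. With the replicate number as a block the counts were 1, 3 and 3 creatine probe sets and 0, 3 and 5 other genes, as without it. Signals near background limit Gamt, Gatm, Ckb and Ckmt1 on wild type and Nfkb1-/- arrays, and 4 arrays a group limit all values.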
